A study of Mus musculus with 4 samples.

Results

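Genes of the centromere, the kinetochore and the spindle checkpoint were examined in cells of Comma D beta, a mouse mammary epithelial line. The set holds every gene whose symbol in the array annotation begins with Cenp and a further letter, and 21 named genes of the outer kinetochore, the checkpoint and the chromosomal passenger complex. It came to 42 genes of the 18194 with a named probe set. All 42 were among the 12264 genes whose level reached 3.63 on the log2 scale, the pooled median, on at least 1 array, and these 12264 are the genes analysed below. The study compared cells that carry the surface marker Sca1 (Sca1+) with cells that lack it (Sca1-), each untreated or given doxycycline (dox) at 100 ng/ml for 1 day. All cells were grown in medium with serum, insulin and EGF, stained for Sca1 after the treatment, and sorted. Each of the 4 groups was measured on 1 Affymetrix array, so no difference below has a replicate check. The sources used here say neither what dox controls in this line nor whether it is 1 clone; the series title names Bcl11b.

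The kinetochore is the protein assembly that joins a chromosome's centromere to spindle microtubules in mitosis. Its inner layer sits on nucleosomes that contain the histone variant CENP-A, its outer layer holds the microtubule-binding Ndc80 complex, and the spindle checkpoint delays anaphase until every kinetochore is attached. The chromosomal passenger complex, built around the Aurora B kinase, corrects faulty attachments. In dividing cells the transcripts of many of these genes accumulate towards G2 and mitosis, and they are widely used as marks of dividing cells, while some inner-layer genes are transcribed more evenly.

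Where a gene had several probe sets, the brightest on average stood for it. The authors' values share a floor of 3.32 (log2 of a linear level of 10), which held between 44.8% and 48.0% of probe sets on an array. Among the 42 genes only Nsl1 had a floor value, on the dox Sca1- array. Bcl11b was higher with dox by 5.25 (log2) in Sca1+ cells and 5.70 in Sca1- cells by its most intense probe set. The other 3 of its 4 probe sets were at the floor on the dox Sca1+ array, with differences there of -4.20, -2.53 and -1.58 or lower, and stood at -0.83, -0.99 and 0.00 in Sca1- cells. The 0.00 comes from a probe set at the floor on both Sca1- arrays, so it measures no change there. The mammary epithelial genes Krt14, Krt18, Epcam and Cdh1 were well above the floor on all arrays, whereas the luminal keratin gene Krt19 and the myosin gene Myh11 were at the floor on all. The gene of the Sca1 antigen had no named probe set, so the sort rests on the labels. Of the named markers of other cell types, 4 of 6 T-cell, 3 of 6 other leukocyte, 3 of 5 endothelial and 3 of 3 adipocyte genes were at the floor on all arrays. The fibroblast list was higher with dox: its 6 genes summed to linear levels of 68.9 and 85.4 on the untreated Sca1+ and Sca1- arrays and 739.4 and 412.0 on the dox arrays, most of the latter from Dcn, with Col1a1, Col3a1 and Pdgfrb at the floor throughout; its part in the results was not tested. The luminal list summed to linear levels of 5696 (Sca1+) and 9262 (Sca1-) without dox and 4743 (Sca1+) and 6538 (Sca1-) with dox, so its sum was higher in Sca1- cells in each treatment. Of its 8 genes 1, Krt8, was at least 2-fold higher in Sca1- cells in both treatments, against 0.881% of the genes analysed. Esr1 was higher in Sca1+ cells without dox (6.14 against 5.68) and Elf3 with dox (4.27 against 3.86). The part of the luminal list was not tested either. The basal list summed to 7696 (Sca1+) and 5469 (Sca1-) without dox and 4802 (Sca1+) and 4524 (Sca1-) with dox, so its highest and lowest arrays were untreated Sca1+ and dox Sca1-. Within it 3 of 7 genes were at least 2-fold lower with dox in both fractions, against 8.56% of the genes analysed. Krt5 read 11.46 and 10.77 untreated and 7.47 and 7.63 with dox. Acta2 read 7.65 and 7.93 against 4.78 and 4.84, and Mylk 5.04 and 5.53 against 3.32 (the floor) and 3.44. The others were not lower to that extent. Krt14 read 11.77 and 11.54 untreated and 11.87 and 11.92 with dox, and Trp63 10.14 and 8.77 against 9.70 and 8.63. Oxtr was above the floor only on the untreated Sca1+ array (3.81). The part of the basal list in the results was not tested.

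Promoter sequence, which the choice of genes did not use, was examined next. RefSeq promoter windows (GRCm38.p6, 250 bases before to 50 after a gene's start) were at hand for 36 of the 42. The letters searched, on both strands, were CCAAT, the box bound by NF-Y; TTTGAA and its variant TTCGAA, the cell cycle genes homology region (CHR) that brings the DREAM and MMB complexes to mitotic genes; and the E2F-type words TTCCCGC and TTGGCGC. These words overlap in places, and no test of enrichment was run. CCAAT stood in the windows of 23 of the 36 genes (63.9%), against 42.8% of the 9892 analysed genes with a window and 41.1% of all 27025 genes with one. TTTGAA or TTCGAA stood in 13 of the 36 (36.1%), against 16.2% and 21.7%. TTCCCGC was present in 10 (27.8%, against 9.63% and 5.29%) and TTGGCGC in 2 (5.56%, against 5.05% and 2.85%). The 150 bases before the start are shown for 3 genes that were far lower on the dox Sca1- array (Bub1, Ttk and Cdca8), for Cenpw, in which CCAAT and TTCAAA overlap, and for Zwint, which was higher with dox. All those shown hold CCAAT. In the same stretch Birc5, Nuf2 and Mad2l1, also far lower on the dox Sca1- array, held none of the words searched. Capitals mark CCAAT, on either strand (ATTGG is its reverse), and in Cenpw also the TTCAAA that it runs into.
Bub1, chr2:127831860-127832009, - strand: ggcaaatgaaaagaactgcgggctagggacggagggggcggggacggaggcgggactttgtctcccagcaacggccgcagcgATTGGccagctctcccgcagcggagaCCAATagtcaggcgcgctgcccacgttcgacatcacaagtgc
Ttk, chr9:83834539-83834688, + strand: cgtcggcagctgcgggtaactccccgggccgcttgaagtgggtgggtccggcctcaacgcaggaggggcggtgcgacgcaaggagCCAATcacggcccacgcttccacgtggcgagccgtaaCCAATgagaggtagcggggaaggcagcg
Cdca8, chr4:124936918-124937067, - strand: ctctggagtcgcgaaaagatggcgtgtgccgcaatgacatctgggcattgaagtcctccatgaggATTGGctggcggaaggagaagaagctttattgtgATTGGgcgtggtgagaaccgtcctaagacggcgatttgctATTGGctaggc
Cenpw, chr10:30200541-30200690, - strand: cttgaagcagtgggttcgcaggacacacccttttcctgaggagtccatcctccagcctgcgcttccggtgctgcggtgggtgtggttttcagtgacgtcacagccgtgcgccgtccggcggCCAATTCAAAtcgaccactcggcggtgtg
Zwint, chr10:72654696-72654845, + strand: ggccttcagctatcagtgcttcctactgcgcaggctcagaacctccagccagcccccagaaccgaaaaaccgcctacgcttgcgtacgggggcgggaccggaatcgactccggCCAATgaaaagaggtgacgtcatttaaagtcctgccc

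In 8 of the 36 genes a TTTGAA or TTCGAA lay within the first 50 transcribed bases, against 2.16% of the 9892 analysed genes with a window and 2.87% of all 27025 genes with one. This narrower stretch was chosen after the positions had been seen. Among the 8 genes were Bub1, Bub1b, Cenpa, Cenpf, Ndc80, Spc25 and Ttk, and all 8 were among the genes lower by 2-fold or more on the dox array of Sca1- cells. Of the 14 other genes with a window, those not 2-fold lower there, 0 held the word in that stretch, a count near the 2.16% of the analysed genes. The word began at base 3 of the transcript in Cenpf, 8 in Ttk, 15 in Bub1 and 17 in Cenpa. Short stretches of 20 bases around it are given for these 4 in the gene's direction, with the word in capitals; TTCAAA is TTTGAA on the other strand. A match is a description of these letters and not evidence that a factor binds.
Cenpf, chr1:189688072-189688091, - strand: cgggcagTTTGAAtcgctcg
Ttk, chr9:83834689-83834708, + strand: gggaaatTTCAAAcgtgttt
Bub1, chr2:127831833-127831852, - strand: cggggaaTTCGAAtcgccgg
Cenpa, chr5:30666895-30666914, + strand: gtgatttTTTGAActgctgg

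Most of the 42 genes had 1 order of levels over the arrays. Untreated Sca1+ cells had the highest level of 37 genes, dox Sca1- cells the lowest level of 34, and 33 genes (78.6%) showed both; the same order held for 10.1% of the 12264 genes analysed. Within these 33, the dox Sca1+ array was above the untreated Sca1- array for 17 genes and below it for 16, with a median gap of 0.05 (log2) and a range from -0.85 to 1.16. For 26 of the 42 (61.9%) the dox Sca1- array was lowest and the gap between dox Sca1- and the next array was over 50% of the gene's whole range, against 3.18% of the genes analysed. Only 8 genes spanned less than 1 log2 unit over the arrays (Bub3, Cenpb, Cenpc1, Cenpj, Cenpt, Cenpv, Cenpx and Mad1l1), a span that 67.1% of the genes analysed kept to. RNA from sorted cells averages over all of them, so fewer cells in mitosis and less of each transcript per cell cannot be told apart. As a sign of RNA quality, the 3' probe set for actin exceeded the 5' one by 0.69 in Sca1+ and 0.81 in Sca1- cells without dox and by 0.83 and 0.91 with it (log2). For Gapdh the same difference was -0.10 and -0.055 without dox and -0.01 and 0.11 with it. Both controls had an order over the arrays that runs opposite to the levels of these genes. The part of RNA quality in the results was not tested.

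**Figure D1:**
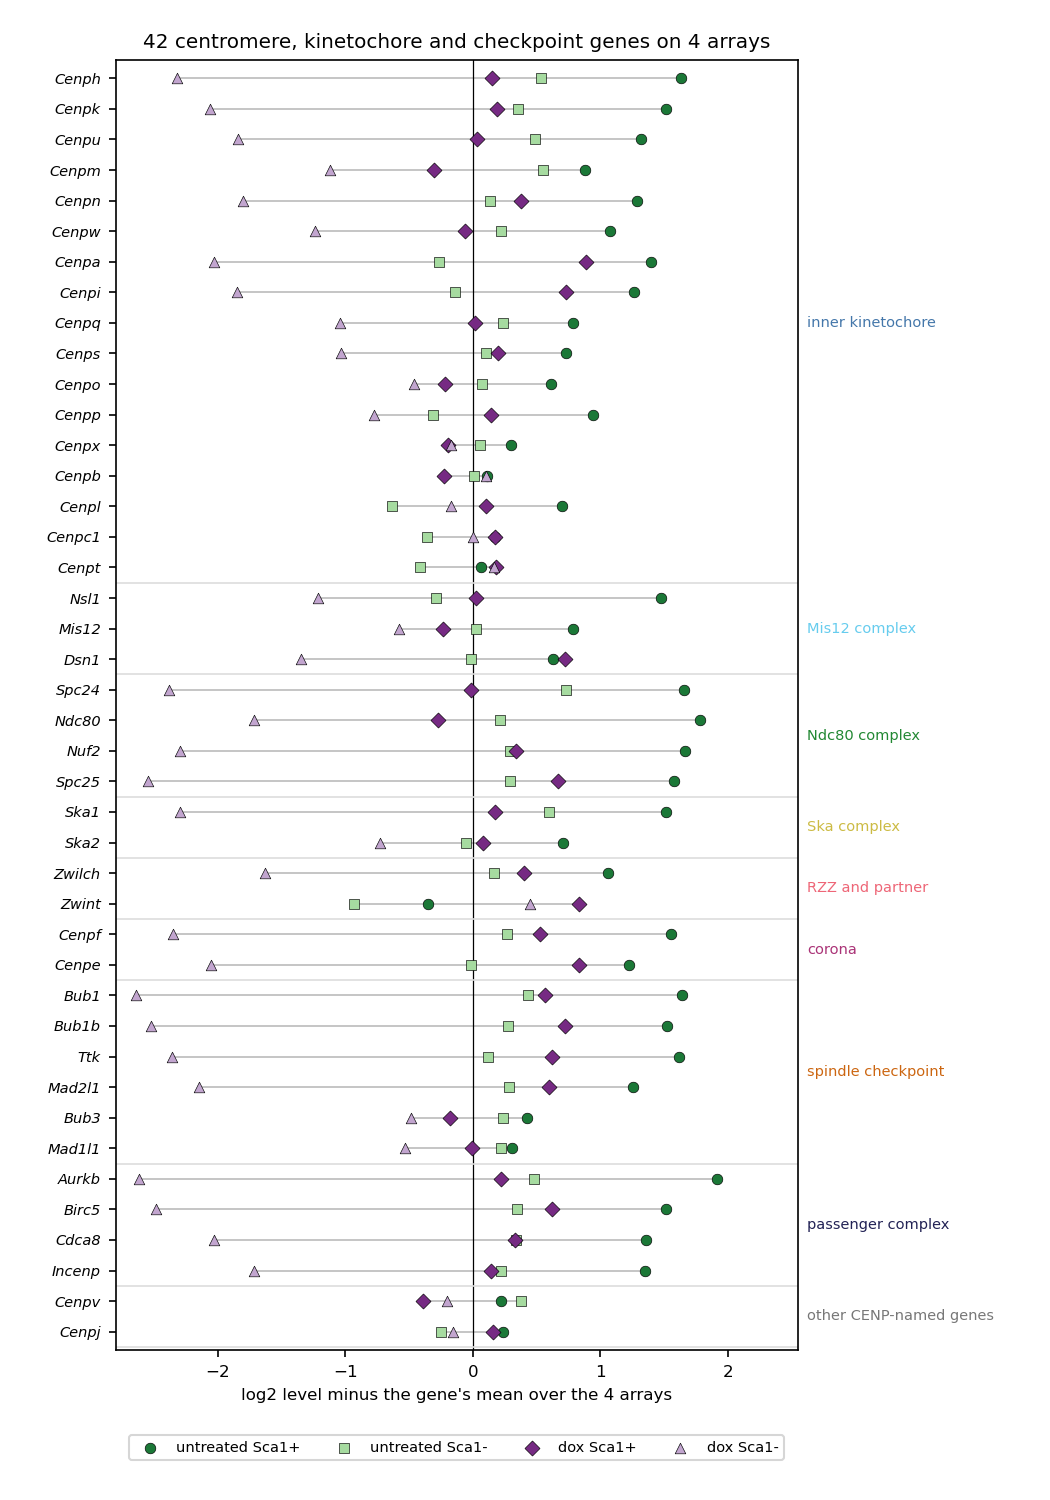
Log2 level of each of the 42 genes on the 4 arrays, relative to the gene's own mean over the arrays (x axis), with genes in rows by role and each symbol standing for 1 array. For 33 genes untreated Sca1+ (dark green circles) lies farthest right and dox Sca1- (pale triangles) farthest left, and Zwint has the dox arrays to the right of the untreated ones.

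The dox effect was read first, within each fraction. In Sca1+ cells dox went with a level lower by 2-fold or more for 16 of the 42 genes (38.1%), against 12.9% of the genes analysed, and 1 was at least 2-fold higher, against 8.47%. In Sca1- cells 27 of the 42 (64.3%) were lower to that extent, against 11.3%, and 1 higher, against 7.20%. Lower in both fractions were 14 genes (33.3%, against 8.56%), 13 more passed 2-fold only in Sca1- cells, and 2, Mis12 and Nsl1, only in Sca1+ cells. The gene higher in both was Zwint (background 5.29%). The median log2 difference over the 42 was -0.82 in Sca1+ and -1.73 in Sca1- cells, where all genes analysed had medians of 0.03 and 0.02.

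**Figure D2:**
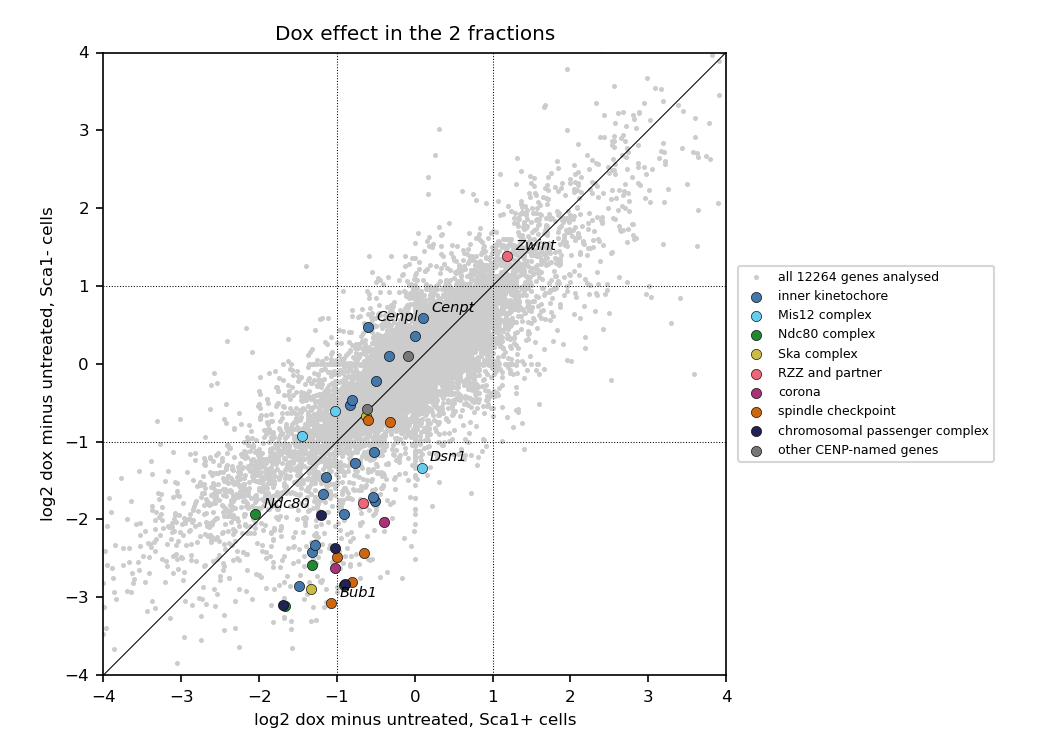
Log2 difference between dox and untreated cells in the Sca1+ fraction (x axis) and the Sca1- fraction (y axis), for all 12264 genes analysed (grey; those beyond 4 log2 units are not drawn) and the 42 genes (coloured by role), with dotted lines at 2-fold and the diagonal of equal effects. Most coloured points lie below the diagonal and in or near the lower left, Zwint alone lies in the upper right square past 2-fold, and Ndc80 lies near the diagonal.

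In the inner kinetochore the dox difference was graded. Of its 17 genes, 5 (29.4%, against 8.56% of the genes analysed) passed 2-fold downward in both fractions: Cenph, Cenpk, Cenpm, Cenpu and Cenpw. Another 5 did so only in Sca1- cells (Cenpa, Cenpi, Cenpn, Cenpq and Cenps), where 58.8% of the 17 passed in all, against 11.3%. In neither fraction was any 2-fold higher, against 8.47% and 7.20%, which does not set 17 genes apart. Cenph, which belongs with Cenpi and Cenpk to a subcomplex of the constitutive centromere network, read 8.08 and 6.98 on the untreated Sca1+ and Sca1- arrays and 6.60 and 4.13 on the corresponding dox arrays. It was thus 2.79-fold lower with dox in Sca1+ and 7.24-fold lower in Sca1- cells. Cenpk (2.50-fold and 5.34-fold lower) and Cenpu (2.44-fold and 5.02-fold lower) were alike, while Cenpi differed less in Sca1+ cells (1.45-fold, and 3.27-fold in Sca1-). Cenpa, the centromeric histone variant that marks the site of the kinetochore, read 9.39 and 7.72 untreated and 8.88 and 5.96 with dox, again in the order Sca1+ and Sca1-. Its dox arrays therefore straddled the untreated Sca1- array, and its dox difference was -0.51 in Sca1+ and -1.76 in Sca1- cells.

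Other inner-layer genes varied less. Cenpx, a histone-fold protein also known from DNA repair, read 8.42 and 8.18 on the untreated Sca1+ and Sca1- arrays and 7.93 and 7.95 with dox, a span of 0.49. Cenpb, which binds a motif in centromeric satellite DNA, spanned 0.34 over the arrays, Cenpc1, a link between the CENP-A nucleosome and the outer layer, 0.53, and Cenpt, a histone-fold protein that recruits the Ndc80 complex, 0.60. Cenpt and Cenpc1 had dox differences at or above 0 in both fractions (0.11 and 0.58 for Cenpt, 0.00 and 0.36 for Cenpc1). Cenpl, the partner of Cenpn, read 7.62 and 6.29 untreated and 7.02 and 6.76 with dox, so its dox difference was -0.60 in Sca1+ and 0.47 in Sca1- cells. Cenpn, by contrast, was 1.88-fold lower in Sca1+ and 3.82-fold lower in Sca1- cells. The partners Cenpo and Cenpp had dox differences of -0.83 and -0.80 (log2) in Sca1+ cells and -0.53 and -0.46 in Sca1- cells, short of 2-fold. Cenpj, named for the centromere although its product acts at the centriole, read 7.14 and 6.65 untreated and 7.05 and 6.75 with dox. Cenpv read 6.71 and 6.87 untreated and 6.10 and 6.29 with dox, so its dox differences were -0.61 and -0.58 (log2) in the Sca1+ and Sca1- fractions.

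The outer kinetochore was lower with dox through the Ndc80 complex and less evenly through the 3 Mis12 complex genes of the set. All 4 Ndc80 complex genes passed 2-fold in Sca1- cells, and 3 of them also in Sca1+ cells, against 11.3% and 12.9% of the genes analysed. Spc24 read 9.17 and 8.24 on the untreated Sca1+ and Sca1- arrays and 7.50 and 5.13 with dox, which is 3.18-fold and 8.63-fold lower. Spc25, its partner at the end of the complex that faces the chromosome, read 9.44 and 8.16 untreated and 8.54 and 5.32 with dox, which is 1.88-fold and 7.17-fold lower. Ndc80 itself, the microtubule-binding subunit, had the largest downward difference of the 42 in Sca1+ cells, from 7.60 to 5.56, and went from 6.04 to 4.11 in Sca1- cells, so that its fold was about the same in the fractions (4.14 and 3.81). Nuf2, with which it pairs, was 2.50-fold and 6.02-fold lower.

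The Mis12 complex joins the Ndc80 complex to the inner layer, and its 3 genes in the set differed among themselves. Pmf1, a further gene of the complex, was outside the set. Its dox differences were -1.82 in Sca1+ and -2.25 or lower in Sca1- cells, where the dox array was at the floor. Mis12 read 7.73 and 6.96 on the untreated Sca1+ and Sca1- arrays and 6.70 and 6.36 with dox, with differences of -1.02 and -0.61. Nsl1 read 6.01 and 4.24 untreated and 4.56 with dox in Sca1+ cells, 2.73-fold lower, and was at the floor in dox Sca1- cells, at least 1.90-fold lower. Its second, dimmer probe set was at the floor on both untreated arrays and read 4.17 and 3.97 with dox, which is opposite in sign, by at least 0.85 in Sca1+ and at least 0.65 in Sca1- cells (log2). Dsn1 read 6.48 and 5.84 untreated and 6.57 and 4.50 with dox, so that its difference was 0.09 in Sca1+ and -1.33 in Sca1- cells. In the Ska complex, which helps kinetochores to follow shrinking microtubules, Ska1 read 7.74 and 6.83 untreated and 6.40 and 3.93 with dox, 2.53-fold and 7.44-fold lower. Ska2 read 7.82 and 7.06 untreated and 7.19 and 6.38 with dox, 1.54-fold and 1.60-fold lower.

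Zwint, a protein that links the outer kinetochore to the Rod-Zw10-Zwilch complex, went the other way. It read 8.03 and 7.45 on the untreated Sca1+ and Sca1- arrays and 9.22 and 8.84 on the dox arrays, so both dox arrays were above both untreated ones. This is a fold of 2.28 in Sca1+ cells and 2.61 in Sca1- cells. Zwint had 7 probe sets, 6 of them above the floor, and all 6 were higher with dox in both fractions, by 0.58 to 1.20 (log2) in Sca1+ and 0.73 to 1.38 in Sca1- cells. Zwilch, a subunit of the complex to which it binds, read 8.40 and 7.51 untreated and 7.74 and 5.72 with dox, 1.58-fold and 3.46-fold lower. Averaging the probe sets of each gene, which takes in the Zwint probe set at the floor on all arrays, left Zwint short of 2-fold in both fractions (0.81 and 0.92, log2), and centring the arrays on all probe sets left it just short in Sca1+ cells.

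**Figure D3:**
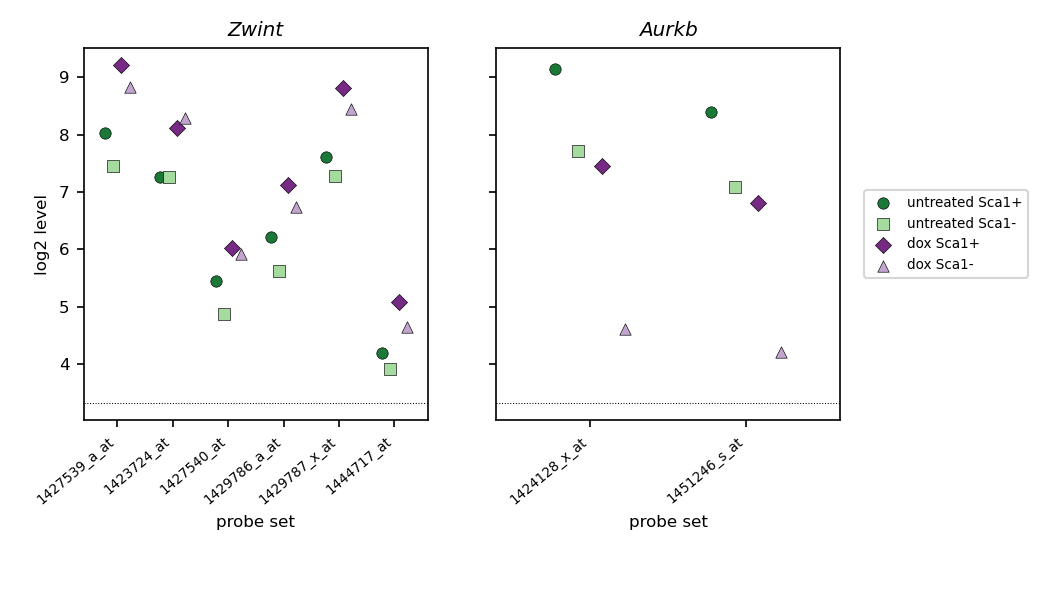
Log2 level (y axis) on the 4 arrays by probe set, for the 6 Zwint probe sets above the floor and the 2 of Aurkb, with the authors' floor as a dotted line. Each Zwint probe set has its dox arrays above its untreated arrays, while each Aurkb probe set has untreated Sca1+ at the top and dox Sca1- at the bottom.

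The spindle checkpoint held both genes with large differences and genes with small ones. Bub1, the kinase that recruits checkpoint proteins to kinetochores, read 9.49 and 8.28 on the untreated Sca1+ and Sca1- arrays and 8.42 and 5.20 with dox, 2.10-fold and 8.43-fold lower. Bub1b (BubR1), part of the inhibitor of the anaphase-promoting complex, read 8.06 and 6.81 untreated and 7.26 and 4.01 with dox, 1.74-fold and 6.98-fold lower. Ttk (Mps1), the kinase that starts the checkpoint signal, was 1.99-fold and 5.58-fold lower, and Mad2l1, which encodes the Mad2 inhibitor, 1.57-fold and 5.39-fold lower. The remaining 2 of the 6 genes spanned under 1 log2 unit. Bub3, a partner of Bub1 and BubR1, read 10.61 and 10.43 untreated and 10.01 and 9.70 with dox. Mad1l1, the anchor of Mad2, lay close to the floor at 4.34 and 4.26 untreated and 4.02 and 3.50 with dox.

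All 4 genes of the chromosomal passenger complex passed 2-fold downward with dox in Sca1- cells, against 11.3% of the genes analysed. Aurkb, its kinase, read 9.15 and 7.72 on the untreated Sca1+ and Sca1- arrays and 7.46 and 4.62 with dox, 3.24-fold and 8.58-fold lower. Birc5 (survivin), which targets the complex to centromeres, read 10.67 and 9.50 untreated and 9.77 and 6.67 with dox, 1.86-fold and 7.13-fold lower. Incenp, the scaffold, read 10.53 and 9.40 untreated and 9.32 and 7.46 with dox, 2.30-fold and 3.83-fold lower, and Cdca8 (borealin) was 2.03-fold and 5.14-fold lower. The motor gene Cenpe and the large coiled-coil gene Cenpf, whose products form part of the fibrous corona, followed. Cenpe read 8.14 and 6.90 untreated and 7.75 and 4.86 with dox, 1.31-fold and 4.09-fold lower. Cenpf read 9.01 and 7.73 untreated and 7.99 and 5.11 with dox, 2.04-fold and 6.16-fold lower. Of the 42 genes, Aurkb, Bub3, Cdca8, Cenpo and Incenp were read from probe sets whose suffix (s or x) marks possible binding of other transcripts.

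An additive fit with limma (dox and Sca1 as terms, 4 arrays, Benjamini-Hochberg adjustment over the 12264 genes) called 21 of the 42 genes lower with dox at an adjusted p under 0.05, against 14.8% of the genes analysed, and called Zwint higher (adjusted p = 0.0126). Ndc80 had an adjusted p of 0.00754 by this limma fit, Aurkb 0.0176, Bub1 0.0476 and Bub1b 0.0642. The fit treats the fractions of a treatment as independent, which they are not if 1 culture was sorted into both, and it counts any true difference between the dox effects as noise.

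The second comparison was that of Sca1+ with Sca1- cells. Without dox 20 of the 42 genes (47.6%) passed 2-fold upward in Sca1+ cells, against 3.07% of the genes analysed, and with dox 27 (64.3%), against 2.52%. None of the 42 was 2-fold lower in either treatment, against 3.33% and 2.98% of the genes analysed, which does not set 42 genes apart. In both treatments 18 genes (42.9%, against 1.08%) were 2-fold higher, 9 more only with dox, and 2, Cenpl and Cenpp, only without. The median log2 difference over the 42 was 0.95 without dox and 1.87 with it, where all genes had medians of -0.01 and -0.03 (the same genes and arrays as above, so these medians and those of the dox effect are not independent).

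**Figure D4:**
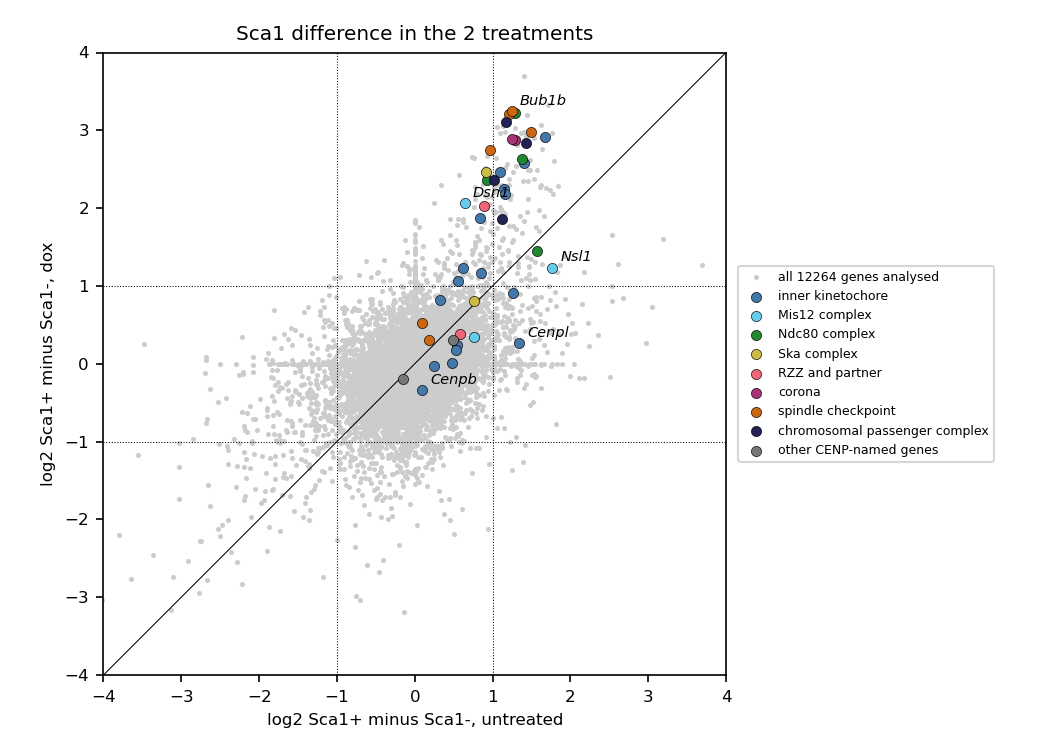
Log2 difference between Sca1+ and Sca1- cells without dox (x axis) and with dox (y axis), for all 12264 genes analysed (grey; those beyond 4 log2 units are not drawn) and the 42 genes (coloured by role), with dotted lines at 2-fold and the diagonal of equal differences. The 18 genes past 2-fold both times lie in the upper right, most of them above the diagonal and up to 3.25 with dox, with Nsl1 and Ndc80 below it.

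The passenger complex and the corona were 2-fold higher in Sca1+ cells in both treatments in all of their 4 and 2 genes, against 1.08% of the genes analysed. Without dox the passenger genes differed by 2.03-fold (Cdca8) to 2.70-fold (Aurkb), and with dox by 3.63-fold (Incenp) to 8.62-fold (Birc5). Cenpe and Cenpf were 2.37-fold and 2.44-fold higher without dox and 7.38-fold and 7.36-fold higher with it. Of the 4 Ndc80 complex genes 3 passed 2-fold both times; Spc24 was 1.90-fold higher without dox and 5.16-fold with it. In the checkpoint, Bub1, Bub1b and Ttk passed both times, at 2.31-fold, 2.37-fold and 2.82-fold without dox and 9.27-fold, 9.49-fold and 7.88-fold with it. Mad2l1 was just short of 2-fold without dox, at 1.95-fold, and was 6.69-fold higher with it, while Bub3 (1.13-fold and 1.24-fold) and Mad1l1 (1.06-fold and 1.43-fold) were far from 2-fold.

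Among the 17 inner kinetochore genes, 5 (29.4%, against 1.08% of the genes analysed) were 2-fold higher in Sca1+ cells both times: Cenpa, Cenph, Cenpi, Cenpk and Cenpn. Cenpa had the largest untreated difference of these, 3.18-fold, and was 7.55-fold higher with dox. The largest untreated difference of all 42 was that of Nsl1, 3.39-fold, which became at least 2.36-fold with dox because the dox Sca1- array was at the floor. Cenpl went from 2.52-fold higher without dox to 1.20-fold with it, and Cenpp from 2.39-fold to 1.89-fold. The genes with a narrow span over the arrays had Sca1 differences between -0.33 (Cenpb with dox) and 0.53 (Cenpc1 without dox) on the log2 scale. By the additive limma fit 0 of the 42 genes passed an adjusted p of 0.05 for Sca1, as did 0 of all genes analysed (0.00%), and 32 of the 42 had an unadjusted p under 0.05, against 6.17%.

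The third comparison was the difference between the dox effects, the effect in Sca1+ cells minus that in Sca1- cells, which is also the Sca1 difference with dox minus that without. It was at least 1 log2 unit in 21 of the 42 genes (50.0%), against 3.69% of the genes analysed, and at or below -1 in 1, Cenpl at -1.07, against 3.44%. The median over the 42 was 0.88, against -0.01 over all genes, and 90% of all genes lay between -0.87 and 0.87. The largest values were those of Bub1 and Bub1b (each 2.00), Birc5 (1.94), Spc25 (1.93) and Mad2l1 (1.78). Dimmer probe sets did not all repeat them. The second gave -0.04 for Spc25 and -0.29 for Bub1, where its dox Sca1- value was at the floor. For Bub1b the other probe sets gave 1.49 and 0.21, the latter at the floor on 3 arrays. Birc5 and Mad2l1 had 1 probe set each. When all probe sets of a gene were averaged, 13 of the 42 reached 1, against 2.52% of the genes. No test of this difference exists with 1 array per group.

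The values by role overlapped widely, and no difference between roles was tested. By the chosen probe sets the corona genes Cenpe (1.64) and Cenpf (1.60) were alike. So were the passenger genes Aurkb (1.41) and Cdca8 (1.34), with Incenp lower at 0.74. Further probe sets gave similar values for Cenpe (1.497) and Aurkb (1.297), but not throughout for Cdca8 and Cenpf. Those of Cdca8 gave 1.26 and 0.53, the latter below the 0.74 of Incenp. Those of Cenpf gave 0.83 and -1.32, each with its dox Sca1- value at the floor. The checkpoint ran from 0.12 (Bub3) and 0.43 (Mad1l1) to 2.00, and 4 of its 6 genes reached 1 (66.7%, against 3.69% of the genes analysed). The Ndc80 complex was split, with Nuf2 at 1.27, Spc24 at 1.44 and Spc25 at 1.93 but Ndc80 at -0.12. The Ska complex had Ska1 at 1.56 and Ska2 at 0.05. Dimmer Ska1 probe sets, both with floor values, gave -0.52 and 0.34. The Mis12 complex had Dsn1 at 1.42, Mis12 at -0.42 and Nsl1 at -0.53. The Nsl1 value can only be higher if its floor value stands for a lower level. In the inner kinetochore 6 of 17 (35.3%, against 3.69%) reached 1, and 7 were below 0. The 6 were Cenpa, Cenph, Cenpi, Cenpk, Cenpn and Cenpu, from 1.02 to 1.37. Their further probe sets at the floor on at most 1 array gave 0.82 for Cenpn, 0.47 for Cenpa and 0.11 for Cenpu. For Cenpa and Cenpu the dox Sca1- value was at the floor. Of the 17 genes at or above 1 with a promoter window, 7 held TTTGAA or TTCGAA in the first 50 transcribed bases (41.2%) and 13 held CCAAT in the whole window (76.5%). The 8 genes with a narrow span held them in 0 and 3 (37.5%), near the 2.16% and 42.8% of the analysed genes with a window. The stretch of 50 bases was chosen after the positions had been seen.

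**Figure D5:**
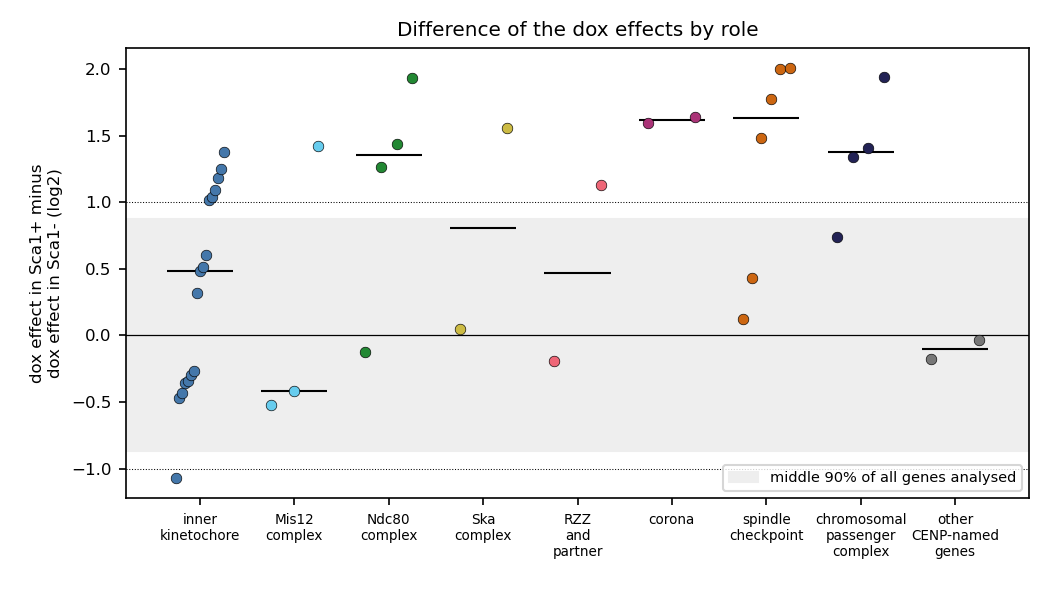
Dox effect in Sca1+ cells minus dox effect in Sca1- cells (log2, y axis) for each of the 42 genes, by role; bars are medians, dotted lines mark 2-fold, and the grey band holds the middle 90% of all genes analysed, from -0.87 to 0.87. The corona, checkpoint, passenger and Ndc80 groups have medians above the band, and the inner kinetochore spreads from -1.07 to 1.37.

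The probe sets of a gene mostly gave the same direction. Of 29 further probe sets that were at the floor on at most 1 array, in 19 of the genes, 27 had the sign of the chosen one for dox in Sca1+ cells, 28 for dox in Sca1- cells, 26 for Sca1 without dox and 27 for Sca1 with dox. For the difference of the dox effects 19 of 29 did, and the median gap to the chosen probe set was 0.50. The second Aurkb probe set read 8.39 and 7.09 on the untreated Sca1+ and Sca1- arrays and 6.80 and 4.20 with dox, close in pattern to the first.

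Further genes of chromosome segregation outside the set were read from lists written down with earlier results of these data known. Of 20 other kinetochore and centromere-loading genes 18 were measured. Of these, 4 (22.2%, against 8.56% of all genes analysed) passed 2-fold downward with dox in both fractions. In both treatments 8 (44.4%, against 1.08%) passed it upward in Sca1+ cells. In the opposite directions 0 passed, against 5.29% of all genes for dox and 0.881% for Sca1. Trip13, the ATPase that remodels Mad2, had dox differences of -1.29 and -2.90 in the Sca1+ and Sca1- fractions, Sgo1 (shugoshin, the protector of centromeric cohesion) -1.21 and -2.79, and Bod1 -0.11 and 0.01. Of 19 cohesin and condensin genes 5 (26.3%) were lower with dox in both fractions and 5 (26.3%) higher in Sca1+ cells in both treatments. Again 0 passed in the opposite directions, and the shares over all genes are those just given. Such counts of 0 do not set lists of 18 and 19 genes apart from all genes. Esco2, the cohesin acetyltransferase, stood at -1.69 and -3.25 with dox and Cdca5 (sororin) at -1.0 and -2.87, while the cohesin loader gene Nipbl stood at 0.08 and 0.10. The difference of the dox effects reached 1 in 5 of the 18 (27.8%) and 3 of the 19 genes (15.8%), against 3.69% of all genes, and the medians of these lists for it were 0.59 and 0.03.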

How the data were processed

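RNA of 4 sorted samples was hybridised to 1 Affymetrix array each. The deposited table holds log2 levels of 45101 probe sets; no label says how the authors summarised or scaled them, and the values show only that linear levels under 10 were set to 10. Probe sets were named from a platform annotation (34958 with 1 symbol). For each gene the probe set of highest mean was used, and genes reaching the pooled median on at least 1 array were analysed. Differences of log2 levels were computed and counted at 2-fold (1 on the log2 scale); an additive limma fit was run beside them. The number of arrays limits the precision. The members, roles and lists were chosen with earlier results of these data known, and values on every array are given by role for the highest and most and least changed genes; others were chosen after their values were seen. Promoter windows and coordinates come from RefSeq tables of GRCm38.p6; the array files name no build. The calculations were tested on simulated data. Python 3.11.15, pandas 2.3.3, R 4.3.3 and limma 3.58.1 were used. Alternatives were another probe set rule, 3 scalings, a higher floor, other filters and the limma fit. A further short promoter stretch is not reported here.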

Additional observations from a re-analysis of the deposited data

Results flagged for a closer look

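With dox, Cenpl and Dsn1 had differences of opposite sign in the fractions that were at least 2-fold apart. Cenpl was at -0.60 in Sca1+ cells and 0.47 in Sca1- cells. Dsn1 was at 0.0887 in Sca1+ cells and -1.33 in Sca1- cells. Each gene has 1 probe set, each group has 1 array, and the difference was not tested.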

How the results depend on the processing

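Of 58 recomputed counts over the 42 genes, 56 stayed within 1.5 times the value given. The exceptions were the difference of the dox effects with probe sets averaged (13 genes in place of 21), where dim probe sets enter the mean, and the Sca1 difference by the additive limma fit (0 genes). Of the recomputed gene values 62 crossed 2-fold, 1588 did not, and 0 of those past 2-fold changed sign. Centring each array on its median over every probe set shifted the median over genes for dox in Sca1+ cells from 0.03 to -0.16, for Sca1 without dox from -0.01 to 0.21 and for the difference of the dox effects from -0.01 to -0.24. It moved the share of higher among all 2-fold genes from 39.7% to 27.3%, from 48.0% to 70.0% and from 51.7% to 24.7% in these, and from 55.0% to 65.8% for the shared Sca1 difference; centring on bright probe sets gave 62.7% for the difference of the dox effects. Under that centring on all probe sets 21, 26 and 16 of the 42 genes were called, against 16.2%, 5.24% and 2.12% of all genes. No paired analysis was possible because each group has 1 array, and leaving out a replicate was not possible for the same reason. The floor limits what can be said of Nsl1 and Mad1l1. It also limits genes low on the dox Sca1- array, such as Ska1 (3.93), Bub1b (4.01), Ndc80 (4.11) and Cenph (4.13). With the floor raised to a linear level of 32, 10 gene values crossed 2-fold and 200 did not.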

Other observations

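Genes of the anaphase-promoting complex, the ubiquitin ligase that the spindle checkpoint restrains, were mostly level. Of 19 listed genes 1, the inhibitor gene Fbxo5, passed 2-fold downward with dox in both fractions (-1.42 in Sca1+ and -2.60 in Sca1- cells, log2). That is 5.26% of the list, against 8.56% of all genes analysed, which does not set a list of 19 apart. In both treatments 3 (15.8%, against 1.08%) were at least 2-fold higher in Sca1+ cells. The difference of the dox effects reached 1 in 3 of the 19 (15.8%, against 3.69%). The list's median dox effect was 0.02 in Sca1+ and 0.14 in Sca1- cells. Ube2c, the ubiquitin-conjugating enzyme of the complex, stood at -0.66 and -2.39 with dox, and the subunit gene Anapc7 at 0.06 and -0.03.

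Genes of origin licensing and the replication fork were read as well. Of 20 genes 8 (40%, against 8.56%) passed 2-fold downward with dox in both fractions. In both treatments 0 (0.00%, against 1.08%) were 2-fold higher in Sca1+ cells, which does not set a list of 20 apart from all genes. With dox, 8 of the 20 (40%, against 2.52%) were 2-fold higher in Sca1+ cells, and without dox 1 was, against 3.07%. In each treatment 19 of the 20 had a Sca1 difference above 0. Cdt1, a licensing factor, stood at -1.83 and -2.62 with dox and at 0.42 and 1.21 for Sca1 without and with dox. Prim1, the primase subunit, stood at -1.30 and -2.51 with dox, and Pole2 at -0.71 and -0.61. The difference of the dox effects reached 1 in 3 of the 20 (15%, against 3.69%). Whether these lists differ from the kinetochore genes was not tested.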
